A study of Mus musculus with 68 samples.

Results

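The 8 genes described here recycle, make, or carry inositol, the sugar alcohol from which cells build phosphatidylinositol lipids and inositol phosphate messengers. They were taken by symbol, and all 8 were found among the 18088 genes of the deposited table: the inositol monophosphatases Impa1 and Impa2, the inositol polyphosphate phosphatase Inpp1, the nucleotidases Bpnt1 and Impad1 (also called Bpnt2), the inositol phosphate synthase Isyna1, and the inositol transporters Slc5a3 and Slc2a13. When a receptor activates phospholipase C, a membrane phosphoinositide is split and inositol trisphosphate is released, and a chain of phosphatases then strips the phosphates so that free inositol can be used again. Inpp1 removes a phosphate from inositol bisphosphates, and Impa1 and Impa2 carry out the last step, which also completes the synthesis from glucose that Isyna1 begins. Lithium inhibits the enzymes encoded by Impa1, Inpp1 and Bpnt1, and the same fold and metal site are found in Impa2 and Impad1. Bpnt1 works in the cytosol and Impad1 in the Golgi, where they remove phosphate from the nucleotide by-product of sulfation. Slc5a3 imports inositol with sodium and is induced in many cells by hypertonic stress, and Slc2a13 is a proton-coupled inositol carrier found mainly in brain.

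The assay was mRNA sequencing of the prefrontal cortex in 68 mice of the C57BL/6J strain, sampled on postnatal day 25, with 1 library per labelled animal. Mice labelled HT were heterozygous for Adnp, a gene for a chromatin-associated protein, and mice labelled WT carried the wild-type gene. Pups took lithium, fluoxetine (a serotonin reuptake inhibitor) or vehicle through their mother's milk from day 3 to day 24, so exposure depended on the dam. No dose, dam or kind of Adnp mutation is stated in the labels. Lithium was given to 9 HT mice (4 females and 5 males) and 8 WT mice (5 females and 3 males), fluoxetine to 10 HT and 10 WT mice (5 of each sex), and vehicle to 16 HT mice (8 of each sex) and 15 WT mice (8 females and 7 males). The labels do not say which mice were littermates, so p-values measure the spread between libraries.

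Each library held 22.4M to 37.5M reads (median 30.7M), and values are normalized read counts, that is, reads divided by 1 size factor per library. Summed markers of cortical excitatory neurons lay between 48340 and 78986 normalized counts in every library. Markers of neighbouring tissue varied more, striatal neuron markers summing to 2467 to 14871 and olfactory bulb markers to 529 to 29133. Adnp itself was listed at 1492 to 2845 (median 2190) in the 35 HT libraries and at 1077 to 2290 (median 1815) in the 33 WT libraries, so the ranges overlap and the transcript level does not check the genotype labels. HT minus WT, the log2 difference of Adnp was 0.25 under lithium (limma adjusted p = 0.19, and 0.059 in the fit by set), 0.32 under fluoxetine (0.039 and 0.0042) and 0.32 under vehicle (0.0021), but 0.19 under vehicle within set 2 (limma adjusted p = 0.88). The libraries fell into 3 sets by the levels of 361 pseudogenes, a division that the labels do not name. Among vehicle libraries it followed the labels' replicate number: numbers 6 to 8 were all in set 2, and numbers 1 to 5 all in set 1 or 3. The 17 lithium libraries fell in set 2, together with 6 HT and 5 WT vehicle libraries (28 in all). Every fluoxetine library was in set 1, beside 8 from HT vehicle (28 in all), and set 3 had 2 from HT vehicle and 10 from WT vehicle (12 in all). Lithium and vehicle libraries were therefore compared both over all libraries and within set 2, where 11 vehicle libraries stand beside the 17 lithium libraries. In the WT vehicle libraries alone, set 3 differed from set 2 in 42.4% of all genes tested, and what the sets stand for was not tested. Olfactory bulb markers had a median sum of 6369 in set 3 and 581 in set 2 of WT vehicle, and of 5733 in set 1, 2469 in set 2 and 1100 in set 3 of HT vehicle.

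A short stretch of coding sequence encodes part of the metal site of the lithium-sensitive phosphatases. Enzymes of this fold share a short loop whose acidic residues hold the metal ions that lithium competes with, and a pattern of 6 codons was searched for in frame on the coding strand only. Its codons begin with GA, begin with CC, hold T in the middle, begin with GA, hold any bases and begin with AC, in this order. The pattern was present in 117 of 21764 mouse coding genes (0.538%), among them Impa1, Impa2, Inpp1, Impad1 and Bpnt1, and was absent from Isyna1, Slc5a3 and Slc2a13. The coding strand of GRCm38 (GENCODE vM21 transcripts) reads as follows in a 36-base stretch of 4 of these genes, with the 18 bases of the pattern in capitals.
Impa1 (chromosome 3): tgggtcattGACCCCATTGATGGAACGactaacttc
Inpp1 (chromosome 1): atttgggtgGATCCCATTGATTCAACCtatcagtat
Bpnt1 (chromosome 1): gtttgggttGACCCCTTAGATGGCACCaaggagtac
Impad1 (chromosome 4): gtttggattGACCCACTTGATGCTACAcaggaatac
Over the 18 capitals, Impa1 was identical to Inpp1 and to Bpnt1 at 14 bases and to Impad1 at 13, and the other 3 comparisons gave 12 identical bases each. The bases that the pattern names are the same in every match, so part of this identity was fixed by the search.

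Among the 8 genes, level per kilobase of exon differed widely. Bpnt1 had the highest mean over all libraries at 661 normalized counts per kilobase, then Impad1 at 573, Slc2a13 at 398, Isyna1 at 368 and Impa1 at 318. Inpp1 followed at 125 normalized counts per kilobase, the transporter Slc5a3 at 59.3 and Impa2 at 29.1. Across the 68 libraries the coefficient of variation was lowest for Bpnt1 (6.15%) and highest for Slc5a3 (14.2%). The plot of levels by library shows all 8 genes in every genotype and drug group.

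**Figure D1:**
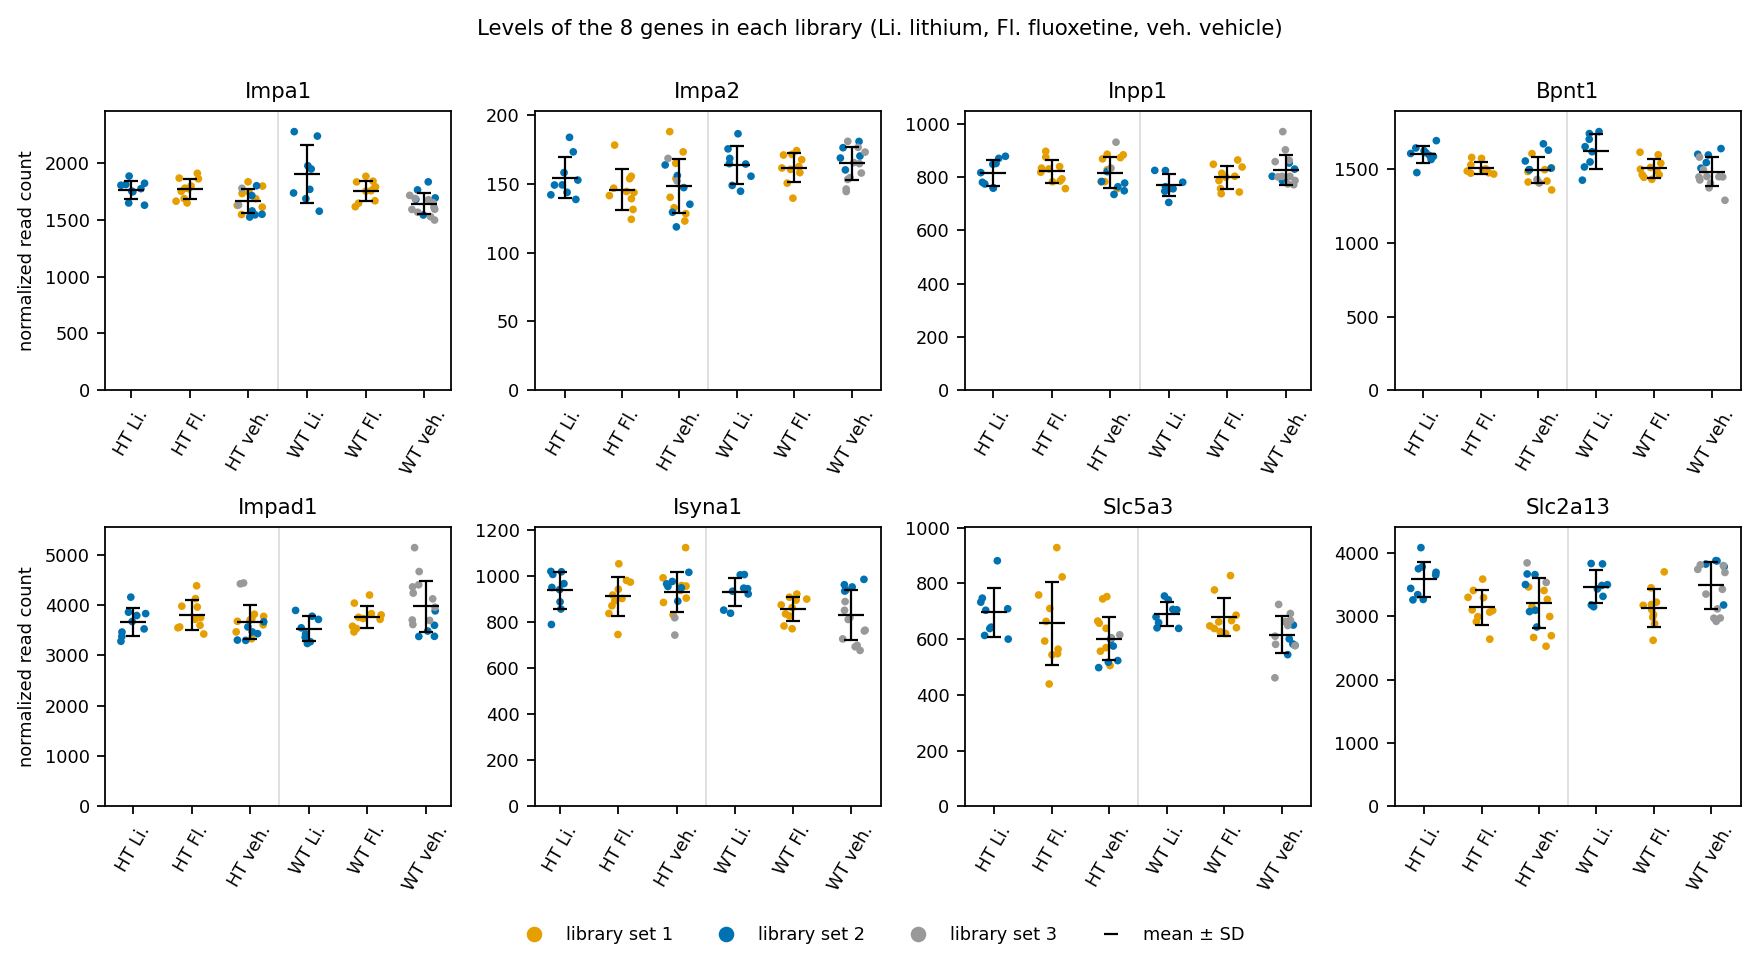
Normalized read count (y axis, from 0) of each of the 8 genes in each of the 68 libraries, by genotype and drug (x axis, HT then WT, and within each lithium, fluoxetine and vehicle); point colour marks the library set, and bars give mean ± SD. All lithium libraries are in set 2, where Slc5a3 lay between 600 and 881 under lithium, and the widest spread of Impa1 was among WT lithium libraries, from 1575 to 2274.

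Lithium went with higher levels of the sodium-coupled inositol transporter Slc5a3 and of the inositol monophosphatase gene Impa1, and both differences also passed the test in the contrast within set 2. Over all libraries and both genotypes, 3 of the 8 genes rose under lithium (Impa1, Bpnt1 and Slc5a3) and none fell, by limma at a Benjamini-Hochberg adjusted p under 0.05. In the same comparison 35.9% of all 17922 genes tested passed, so the members' count is close to the share among all genes. Within set 2, 1.8% of genes passed, and the genes of the 8 that rose were Slc5a3 and Impa1, with none lower. The median difference over the 8 genes was 0.08 on the log2 scale over all libraries and 0.03 within set 2, against -0.01 and -0.00 over all genes tested.

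Slc5a3 lies at chr16:92058322-92087473 on the plus strand of GRCm38 (GENCODE vM21). Because its level was higher under lithium within set 2, the 300 bases around its start are shown, from 250 before to 50 after, at chr16:92058072-92058371 on the plus strand of GRCm38.p6 from RefSeq, with each GGGCGG (the GC box) in capitals.
Slc5a3: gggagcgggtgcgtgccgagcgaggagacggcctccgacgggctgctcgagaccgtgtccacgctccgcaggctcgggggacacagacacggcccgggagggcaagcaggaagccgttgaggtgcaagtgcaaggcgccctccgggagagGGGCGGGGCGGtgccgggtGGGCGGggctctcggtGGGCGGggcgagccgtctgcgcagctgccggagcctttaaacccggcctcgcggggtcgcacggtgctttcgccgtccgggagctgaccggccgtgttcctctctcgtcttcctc
GGGCGG, searched on both strands, occurred 4 times, all on the forward strand, and the leftmost 2 matches overlap by 1 base. Of 32851 promoter windows of this length 35.7% hold it. The letters TGGAAA, the core of the tonicity-responsive element, are not in this window on either strand (21.4% of windows hold them), nor are CACGTG (7.15%), TGACGTCA (1.79%) or TGATGNAA (3.97%). Bases outside the window were not searched, so these absences say nothing of more distant elements. Promoter windows were matched for 5 of the 8 genes: Inpp1, Isyna1, Bpnt1, Slc5a3 and Slc2a13.

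In HT lithium libraries Slc5a3 was between 600 and 881 normalized counts (median 703, n = 9), against 498 to 604 (median 549, n = 6) in HT vehicle libraries of set 2. WT lithium libraries held 638 to 754 (median 692, n = 8), against 578, 601, 544, 582 and 650 in the 5 WT vehicle libraries of set 2. Within set 2 every one of the 17 lithium libraries was above the median of the vehicle libraries, 11 were above the highest vehicle library, and 8 of the 11 vehicle libraries were below the lowest lithium library. The level averaged 694 ± 68.1 normalized counts under lithium and 570 ± 45.3 under vehicle in set 2 (SD, n = 17 and 11), a log2 difference of 0.26 (SE 0.0649, 95% confidence interval 0.13 to 0.39, 1.20-fold, limma adjusted p = 0.019). Over all libraries the means were 694 ± 68.1 under lithium and 608 ± 71.2 under vehicle (SD, n = 17 and 31), and the log2 difference was 0.18 (SE 0.0510, limma adjusted p = 0.0048). With set as a term in the model, where 2.04% of all genes passed, the difference was 0.26 (limma adjusted p = 0.014), and edgeR within set 2 gave 0.26 (adjusted p = 0.016). Each of the 17 lithium libraries could be left out of set 2 with Slc5a3 still past the threshold. Set 2 held 2 WT vehicle males, numbers 6 and 7. Without male 6, which leaves a single library in that group, the difference was 0.24 and Slc5a3 was no longer past the threshold.

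In GENCODE vM21 Slc5a3 shares 159 exon bases with Mrps6, a gene for a mitochondrial ribosomal protein on the same strand. Reads from the shared bases cannot be told apart. The gene spans begin at 92058270 (Mrps6) and 92058322 (Slc5a3) in GENCODE vM21, while the RefSeq promoter windows place the starts 14 bases apart. Mrps6 had a log2 difference of 0.09 under lithium over all libraries (limma adjusted p = 0.040) and of 0.11 within set 2 (limma adjusted p = 0.23). Its level in set 2 ranged from 366 to 594 normalized counts under lithium and from 407 to 485 under vehicle, so the vehicle range lay inside the lithium range.

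The plot of Slc5a3 and Impa1 in set 2 shows the single libraries behind both differences.

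**Figure D2:**
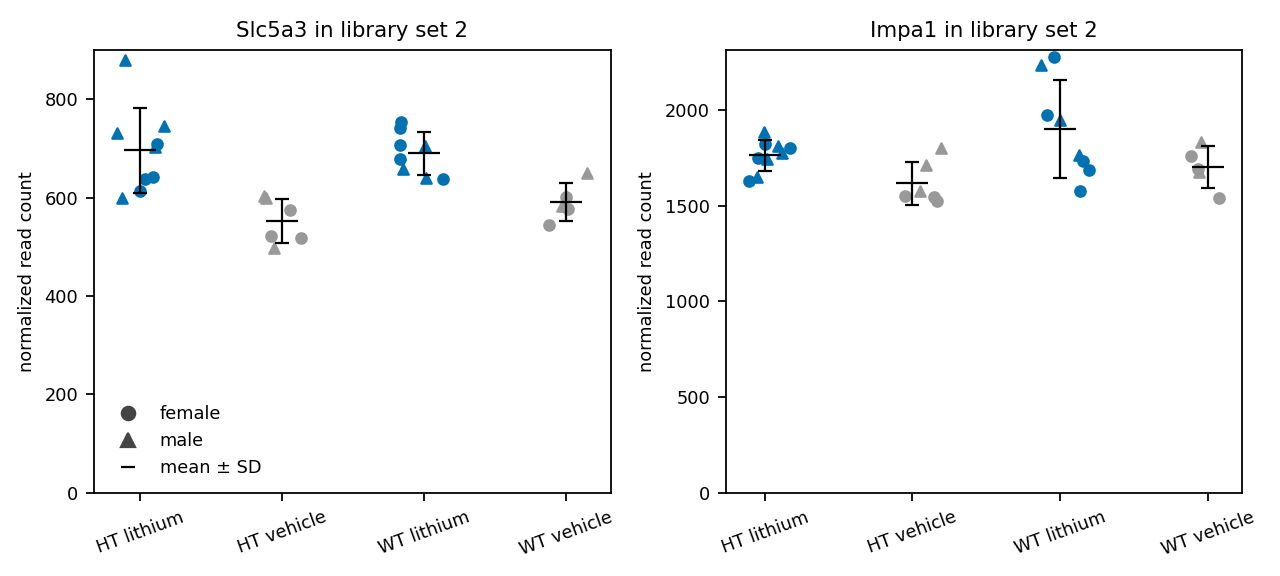
Normalized read count (y axis, from 0) of Slc5a3 (left) and Impa1 (right) in the 28 libraries of set 2, lithium in blue and vehicle in grey within HT and within WT; circles are females, triangles males, bars mean ± SD. Slc5a3 lithium libraries (600 to 881) lie mostly above vehicle (498 to 650), while Impa1 lithium libraries (1575 to 2274) overlap vehicle (1523 to 1833) with 5 above it.

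Impa1 (chr3:10311956-10331439, minus strand), the main inositol monophosphatase gene of brain, had 1627 to 1883 normalized counts in HT lithium libraries (median 1773, n = 9), against 1523 to 1799 (median 1562, n = 6) in HT vehicle libraries of set 2. WT lithium libraries held 1575 to 2274 (median 1856, n = 8), against 1691, 1541, 1762, 1678 and 1833 in the 5 WT vehicle libraries of set 2. The groups overlapped: 14 of the 17 lithium libraries were above the median of the set 2 vehicle libraries and 5 were above the highest of them, with WT lithium female 5 at 2274 and WT lithium male 2 at 2235 farthest out. Means were 1826 ± 192 under lithium and 1655 ± 114 under vehicle within set 2 (SD, n = 17 and 11), a log2 difference of 0.14 (SE 0.0385, 95% confidence interval 0.06 to 0.22, 1.10-fold, limma adjusted p = 0.041). Over all libraries the log2 difference was 0.15 (SE 0.0310, limma adjusted p = 0.00026), and with set as a term it was 0.14 (limma adjusted p = 0.032).

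The set 2 difference of Impa1 was close to the threshold. With a model of set 2 libraries alone the adjusted p was 0.099 by limma, and it was between 0.051 and 0.16, with log2 differences of 0.12 to 0.16, without any 1 of 16 libraries. These were HT lithium females 2 and 3 and males 1 and 2, WT lithium females 3 and 5 and males 1 and 2, HT vehicle females 6, 7 and 8 and males 6 and 8, and WT vehicle female 7 and males 6 and 7. Leaving out either of these WT vehicle males leaves a single library in that group. Impa1 shares 243 exon bases on its own strand with Gm38303, which is not in the table.

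Bpnt1 (chr1:185332149-185357777, plus strand), the cytosolic nucleotidase, was the other gene that rose over all libraries. It averaged 1611 ± 88.2 normalized counts in lithium libraries and 1490 ± 90.6 in vehicle libraries (SD, n = 17 and 31), a log2 difference of 0.12 (SE 0.0251, limma adjusted p = 0.00031), and 15 of 17 lithium libraries were above the vehicle median. Within set 2 the vehicle libraries averaged 1569 ± 63.3 (SD, n = 11), and the log2 difference was 0.04 (95% confidence interval -0.01 to 0.10, limma adjusted p = 0.56). The WT vehicle libraries of set 3 averaged 1438 ± 76.2 and those of set 2 averaged 1579 ± 52.0 (SD, n = 10 and 5), a log2 difference of -0.13 between sets without any drug (limma adjusted p = 0.0056).

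The other 5 genes did not pass in either fit of both genotypes. Inpp1 (chr1:52785427-52817688, minus strand) had a log2 difference of -0.05 over all libraries (limma adjusted p = 0.15) and of -0.00 within set 2 (95% confidence interval -0.07 to 0.07). Impa2 (chr18:67289186-67322472, plus strand) differed by 0.03 in both, with a wider interval within set 2 of -0.09 to 0.15. It shares 1264 exon bases with the antisense gene B430212C06Rik, and its reads cannot be told apart from those of this partner unless counting used strand, which no label states. Slc2a13 (chr15:91267696-91573261, minus strand) differed by 0.07 over all libraries (limma adjusted p = 0.20) and by -0.00 within set 2 (95% confidence interval -0.10 to 0.10).

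Isyna1 (chr8:70594373-70597290, plus strand) and Impad1 (chr4:4762484-4793355, minus strand) turned direction between the fits without passing in either. The log2 difference of Isyna1 was 0.09 over all libraries (limma adjusted p = 0.076) and -0.04 within set 2 (95% confidence interval -0.13 to 0.05), and that of Impad1 was -0.08 (limma adjusted p = 0.076) and 0.03 (95% confidence interval -0.05 to 0.11). Over all libraries Isyna1 passed without any 1 of HT lithium female 3, WT vehicle female 8 or WT vehicle males 6 and 7 (log2 difference 0.10 to 0.11, limma adjusted p = 0.028 to 0.049). Impad1 passed without any 1 of HT lithium female 3, WT lithium female 3 or WT vehicle male 6 (log2 difference -0.10 to -0.09, limma adjusted p = 0.039 to 0.049). In WT vehicle libraries, Isyna1 averaged 769 ± 71.9 normalized counts in set 3 and 954 ± 20.3 in set 2 (SD, n = 10 and 5), and every set 3 library was below every set 2 library. Impad1 averaged 4188 ± 481 in set 3 and 3543 ± 211 in set 2 (SD, n = 10 and 5). These differences between sets under vehicle were -0.31 for Isyna1 and 0.22 for Impad1 on the log2 scale (limma adjusted p = 3.7e-05 and 0.00099). Between the set 1 and set 2 libraries of HT vehicle, none of the 8 genes passed by limma, where 1.62% of all genes did, and the size was largest for Slc5a3 (log2 difference 0.19, limma adjusted p = 0.28).

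Within set 2, 1.8% of all genes passed under lithium in both genotypes. Of 12 lists of cell and region markers, most held no gene past the threshold there. The exceptions were 1 interneuron marker that was higher and 1 endothelial marker that was lower. Over all libraries, where 35.9% of all genes passed, 4 of 8 myelinating oligodendrocyte markers and 2 of 9 striatal neuron markers were higher. In the same fit 6 of 7 meningeal markers were lower. Counts of the other lists in this fit are not given here, and they were not without such genes. The astrocyte marker Aqp4 was lower (log2 difference -0.31, limma adjusted p = 9.2e-05). The median log2 difference was 0.28 over all libraries and -0.05 within set 2 for oligodendrocyte markers, and -0.23 and -0.16 for meningeal markers.

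Markers of striatum and olfactory bulb had median differences of opposite sign in HT and WT within set 2. The median log2 difference of the striatal markers was 0.56 in both genotypes over all libraries and -0.11 within set 2, where it was 0.61 in HT and -0.85 in WT. That of the 6 olfactory bulb markers was -1.17 over all libraries and 0.03 within set 2, where it was -0.78 in HT and 0.90 in WT, and none of the 6 passed in any of these comparisons. In set 2 the summed olfactory bulb markers ranged from 529 to 6100 normalized counts under lithium (median 1350) and from 537 to 10932 under vehicle (median 679), and the summed striatal markers from 3926 to 13289 (median 5901) and from 3127 to 14871 (median 4417). Within set 2, the summed astrocyte markers ranged from 52703 to 67148 normalized counts under lithium and from 54306 to 62434 under vehicle, and the summed oligodendrocyte markers from 108915 to 216819 and from 128802 to 235510. Choroid plexus markers summed to 99 to 6031 under lithium and to 118 to 618 under vehicle within set 2, the 6031 being from 1 WT library. The part of these cells in the differences of the 8 genes was not tested, and in bulk tissue more RNA per cell and more cells of a type cannot be told apart.

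Split by genotype, the lithium comparison left none of the 8 genes past the threshold in HT, in either fit. Over all libraries 1.52% of all genes tested passed in HT, and 3022 of all 17922 had an unadjusted p under 0.05 by limma. Of the 8 genes 3 had such a p by limma and likewise by edgeR: Slc5a3 (log2 difference 0.20, limma adjusted p = 0.11), Bpnt1 (0.10, 0.12) and Slc2a13 (0.17, 0.14). Within set 2, where 0.162% passed, Slc5a3 was 1.25-fold higher in HT lithium libraries than in HT vehicle libraries (log2 difference 0.32, 95% confidence interval 0.14 to 0.49, limma adjusted p = 0.11), and 8 of 9 lithium libraries were above the highest of 6 vehicle libraries. In a model of set 2 libraries alone, added after seeing the data, 0.0949% of all genes passed in HT. Slc5a3 was the only gene of the 8 to pass there (limma adjusted p = 0.037). In the fit by set, Slc5a3 and Impa1 (log2 difference 0.12, limma adjusted p = 0.33) were under an unadjusted p of 0.05 within set 2, and edgeR gave the same 2 genes. Of all 17922 genes 1922 were under it there by limma.

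In WT, 5 of the 8 genes passed over all libraries, where 36.1% of all genes tested did. Impa1 rose (log2 difference 0.21, limma adjusted p = 0.00026), as did Bpnt1 (0.14, 0.0030) and Isyna1 (0.17, 0.022), and Impad1 fell (-0.17, 0.014) together with Inpp1 (-0.10, 0.036). Inpp1 lost its call without any 1 of WT lithium females 1, 2 and 5 and male 2 and WT vehicle female 1 and males 1 and 5 (log2 difference -0.10 to -0.07, limma adjusted p = 0.052 to 0.20), and Isyna1 lost it without WT lithium male 2 or 3 (0.16 and 0.15, limma adjusted p = 0.071 and 0.063). Within set 2 none of the 8 passed, against 0.664% of all genes: Impa1 had a log2 difference of 0.16 (limma adjusted p = 0.21) and Slc5a3 of 0.20 (limma adjusted p = 0.38), and these 2 had an unadjusted p under 0.05 by limma and by edgeR. Of all 17922 genes 2163 had such a p within set 2 by limma. Isyna1 was at -0.04 and Impad1 at -0.02 within set 2.

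The test of whether the lithium difference itself differed between HT and WT was passed by none of the 8 genes in either fit, by limma or by edgeR. Of all genes 2.8% passed it over all libraries, and 0 did within set 2 by limma and by edgeR, with 1606 and 1632 at an unadjusted p under 0.05. HT minus WT, the difference in the lithium difference was 0.05 for Slc5a3 over all libraries (95% confidence interval -0.16 to 0.25) and 0.11 within set 2 (-0.15 to 0.37). For Impa1 it was -0.13 over all libraries (-0.26 to -0.01, limma adjusted p = 0.19) and -0.03 within set 2 (-0.18 to 0.12). By unadjusted p under 0.05, 3 of the 8 genes differed over all libraries (Impa1, Impad1 and Slc2a13) and 2 within set 2 (Inpp1 and Slc2a13), with edgeR naming the same genes. Of all 17922 genes, 3865 over all libraries and 1606 within set 2 had such a p for this difference by limma. Slc2a13 was 0.24 higher in this difference within set 2 (0.03 to 0.45, limma adjusted p = 0.47): HT lithium libraries averaged 3585 ± 278 normalized counts and HT vehicle libraries 3304 ± 351 (SD, n = 9 and 6), while WT lithium libraries averaged 3465 ± 260 and WT vehicle libraries 3708 ± 299 (SD, n = 8 and 5).

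The test of whether the lithium difference differed between females and males was passed by 0 of all genes by limma and by edgeR over all libraries. An unadjusted p under 0.05 was found for 1554 genes by limma and 1574 by edgeR, none of the 8 among them by either tool. Within set 2, the log2 difference of Slc5a3 between lithium and vehicle was 0.27 in HT females (n = 4 and 3) and 0.36 in HT males (n = 5 and 3). In WT it was 0.29 in females (n = 5 and 3) and 0.12 in males (n = 3 and 2). None of these 4 passed (limma adjusted p = 0.52 to 0.95), where 0%, 0%, 0.0167% and 0.0279% of all genes did in that order. The plot of lithium differences gives all 8 genes with their intervals.

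**Figure D3:**
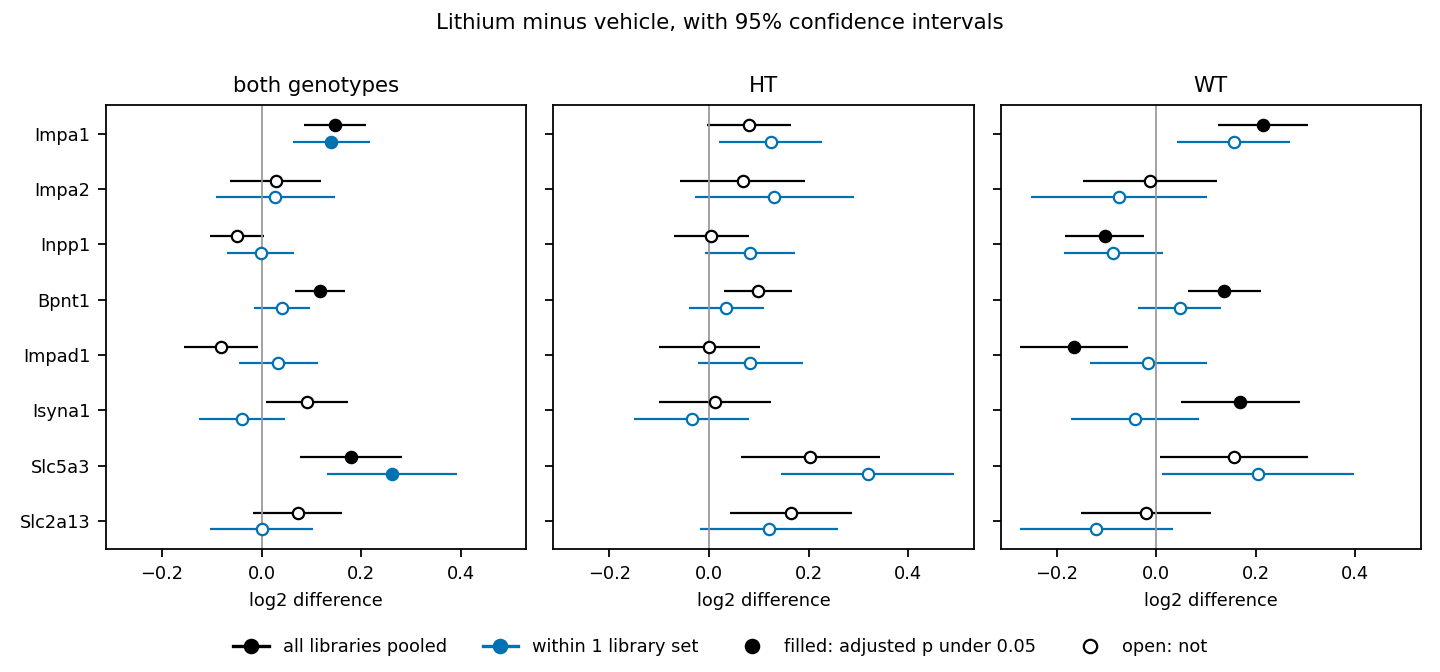
Log2 difference, lithium minus vehicle (x axis), with 95% confidence interval for each of the 8 genes, over all libraries (black) and within set 2 (blue), in both genotypes, in HT and in WT; filled points passed at an adjusted p under 0.05. In both genotypes Slc5a3 (0.18 and 0.26) and Impa1 (0.15 and 0.14) are filled in both colours, and Bpnt1 in black alone (0.12, against 0.04 within set 2).

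Between HT and WT mice few of the 8 genes passed. Under lithium, where all libraries are in set 2, none passed (2.51% of all genes did, and 4.49% in the fit by set), and the lowest adjusted p was that of Impa1, at 1762 ± 82.0 normalized counts in HT and 1899 ± 255 in WT (SD, n = 9 and 8, log2 difference -0.11, limma adjusted p = 0.25). Under fluoxetine, where all libraries are in set 1, none passed either (1.98% of all genes, and 2.85% in the fit by set). Of the 8, Impa2 had the only unadjusted p under 0.05 there by limma and by edgeR, at 146 ± 14.7 in HT and 162 ± 10.5 in WT (SD, n = 10 each, log2 difference -0.15, limma adjusted p = 0.32). By limma 2258 of all 17922 genes had such a p in the fit over all libraries.

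Under vehicle 2 of the 8 genes passed over all libraries, where 15% of all genes did. Isyna1 was higher in HT, at 931 ± 87.7 normalized counts in HT and 830 ± 108 in WT (SD, n = 16 and 15, log2 difference 0.17, SE 0.0482, limma adjusted p = 0.012), and Impa2 was lower, at 148 ± 19.9 in HT and 165 ± 11.9 in WT (log2 difference -0.16, SE 0.0542, limma adjusted p = 0.038). Within set 2, where 0.536% of all genes passed, none of the 8 did: Isyna1 was at 958 ± 40.9 in HT and 954 ± 20.3 in WT (SD, n = 6 and 5, log2 difference 0.01), and Impa2 at 142 ± 17.0 in HT and 171 ± 7.85 in WT (log2 difference -0.28, 95% confidence interval -0.47 to -0.10, limma adjusted p = 0.27). Impa2 and Slc2a13 (-0.18) had an unadjusted p under 0.05 within set 2 by limma and by edgeR, against 1046 of all 17922 genes by limma.

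The call of Impa2 over all vehicle libraries was lost, at log2 differences of -0.16 to -0.14 and limma adjusted p = 0.051 to 0.074, without any 1 of 12 libraries: HT females 3, 4, 6 and 8, HT males 5, 6 and 8, WT females 2 and 5, or WT males 4, 5 and 7. Impad1 (log2 difference -0.12, limma adjusted p = 0.059 with all libraries) passed without any 1 of HT females 3 and 4, HT males 1 and 2, WT females 6, 7 and 8 or WT males 6 and 7 (-0.14 to -0.12, limma adjusted p = 0.019 to 0.049). Slc2a13 (-0.13, 0.090) passed without HT male 2 or WT male 3 (-0.14 and -0.15, limma adjusted p = 0.043 and 0.045). In all 3 drug groups the mean of Impa2 was lower in HT than in WT, and the groups overlapped in each. Under lithium Impa2 ranged from 139 to 184 normalized counts in HT (median 149, n = 9) and from 145 to 186 in WT (median 164, n = 8).

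Fluoxetine left all 8 genes short of the threshold. In HT, 1.22% of all genes passed over all libraries and 0.167% within set 1, and the difference from vehicle ranged from -0.03 for Isyna1 to 0.11 for Slc5a3 over all libraries. Impa1 alone of the 8 had an unadjusted p under 0.05 in HT over all libraries (log2 difference 0.09, limma adjusted p = 0.30, and the same gene by edgeR), and none had within set 1. Of all 17922 genes, 2450 over all libraries and 1942 within set 1 had such a p in HT by limma. In WT 5.43% of all genes passed, and 3982 of all 17922 had an unadjusted p under 0.05 by limma. Impa1 (0.10), Slc5a3 (0.14) and Slc2a13 (-0.16) had such a p by limma and by edgeR (limma adjusted p = 0.15, 0.22 and 0.10). No set holds both WT fluoxetine and WT vehicle libraries, and with set as a term those 3 differences were 0.02, 0.01 and -0.01.

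Slc5a3 had its widest spread in HT mice under fluoxetine, with an SD of 149, against 68.7 in WT mice under fluoxetine. HT fluoxetine females averaged 756 ± 135 normalized counts and HT fluoxetine males 557 ± 81.9 (SD, n = 5 each). The difference between sexes under fluoxetine was not tested. HT fluoxetine libraries ranged from 439 to 928 normalized counts (median 628, n = 10) and WT fluoxetine libraries from 620 to 828 (median 654, n = 10), against 498 to 752 in HT vehicle and 461 to 724 in WT vehicle libraries. By genotype and drug its means were 696 in HT lithium, 690.5 in WT lithium, 679 in WT fluoxetine, 657 in HT fluoxetine, 616 in WT vehicle and 601 in HT vehicle. Neighbours in this order differed by less than the SDs, which ran from 43.9 to 149.

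**Figure D4:**
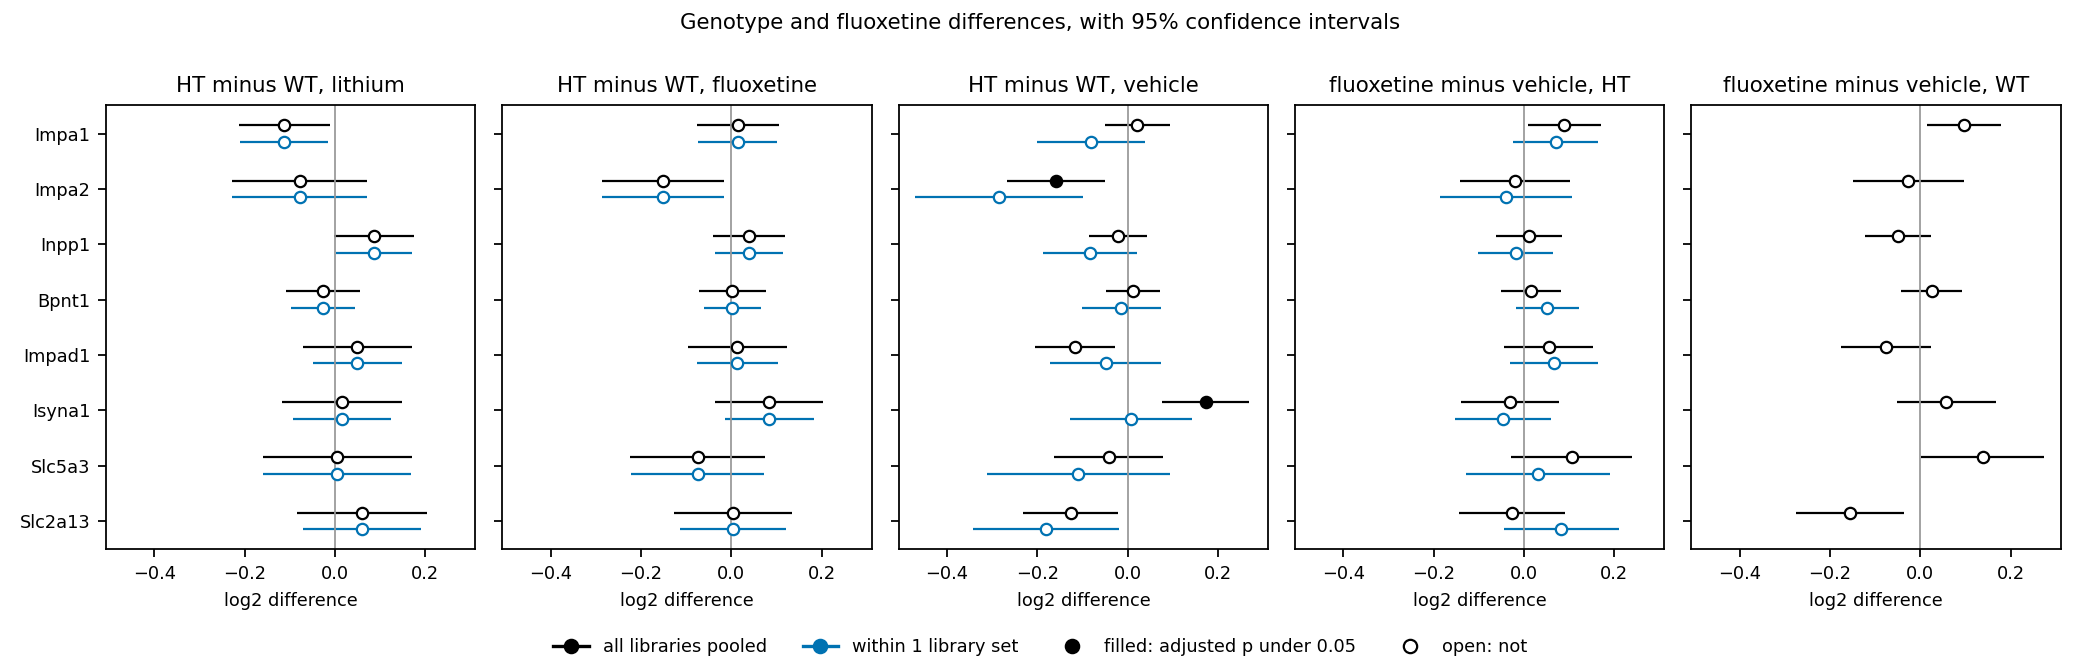
Log2 difference (x axis) with 95% confidence interval for each of the 8 genes, HT minus WT under lithium, fluoxetine and vehicle and fluoxetine minus vehicle in HT and WT, over all libraries (black) and within 1 library set (blue, set 2 for lithium and vehicle and set 1 for fluoxetine). Fluoxetine minus vehicle in WT has black points only, as no set holds both groups of libraries. Filled points passed at an adjusted p under 0.05: Isyna1 (0.17) and Impa2 (-0.16) under vehicle over all libraries, and none of the blue points.

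Further genes were read from lists of inositol kinases, phosphatases, lipid enzymes, phospholipases, osmolyte response genes and relatives or neighbours of the 8. Mrps6, listed for its overlap with Slc5a3, is no gene of inositol metabolism but stands in the counts that follow. Of 82 listed genes 79 were in the table and tested (Miox, Fbp1 and Fbp2 were not in it). Under lithium in both genotypes 26 of them, Mrps6 included, passed as higher and 9 as lower over all libraries, against 35.9% of all genes, and within set 2, 1 passed as higher and none as lower, against 1.8%. That gene was Ipmk, the inositol polyphosphate multikinase, with a log2 difference of 0.10 and an adjusted p that rounds to the threshold (limma, 0.050). In HT 0 of the 79 passed by limma and by edgeR in either fit, with 16 over all libraries and 6 within set 2 at an unadjusted p under 0.05. By limma 3022 and 1922 of all 17922 genes had such a p in these 2 fits. In WT 22 were higher, again with Mrps6 (0.20, limma adjusted p = 0.0025), and 12 lower over all libraries. Within set 2, 0 passed in WT by limma and by edgeR, with 8 at an unadjusted p under 0.05, against 2163 of all 17922 genes by limma.

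Over all libraries, where 35.9% of all genes passed under lithium, counts were taken for each list. The kinases that build higher inositol phosphates had 4 genes higher and 1 lower of 11 (median log2 difference 0.09, against -0.01 for all genes). Among them were Ip6k1, an inositol hexakisphosphate kinase (0.16), Itpk1, a kinase of inositol polyphosphates (0.20), and Itpka, the neuronal inositol trisphosphate kinase (0.21). Of 19 other inositol phosphate and phosphoinositide phosphatases 5 were higher and 1 lower (median 0.00), with Inpp5d at 0.18 and Inpp4a at 0.12 higher and Inpp5f at -0.18 lower. Of 20 genes of phosphatidylinositol synthesis and its kinases 9 were higher and 3 lower (median 0.07). Cdipt, the phosphatidylinositol synthase that joins inositol to the lipid, was at 0.19, the lipid kinase Pip4k2c at 0.22 and the diacylglycerol kinase Dgkb at -0.28. Within set 2 these last 2 stood at 0.12 and -0.12 (limma adjusted p = 0.082 and 0.13), and Cdipt at 0.06.

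Phospholipase C isoforms and inositol trisphosphate receptors held 4 higher and 1 lower gene of 17 under lithium over all libraries (median 0.03). In that fit 35.9% of all genes passed. Plcl2 was at 0.17, Plcd3 at 0.14 and Plcb4 at -0.17, and 0 of the 17 passed within set 2, against 1.8% of all genes. The osmolyte response genes held 2 higher and 2 lower of 8 over all libraries. The heat-shock gene Hspa1b was at 0.64 and the amino acid transporter Slc38a2 at 0.13, the astrocyte water channel Aqp4 was at -0.31, and none passed within set 2, where Slc38a2 was at 0.14 (limma adjusted p = 0.11) and Hspa1b at 0.33 (limma adjusted p = 0.23). Nfat5, the transcription factor that answers hypertonicity, was at -0.26 in WT over all libraries (limma adjusted p = 0.00059), and its lithium difference was 0.29 higher in HT than in WT (limma adjusted p = 0.037), a test it did not pass within set 2 (0.22, limma adjusted p = 0.43). Under lithium over all libraries Pgm1 was higher (0.09) and Pgm2 lower (-0.15), both phosphoglucomutases, enzymes of glucose phosphate metabolism, and Slc5a11, another sodium-coupled inositol transporter, was at 0.02. Within set 2 they stood at 0.03, 0.03 and -0.21, none past the threshold.

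Between genotypes, 2 of the 79 genes passed in every drug group over all libraries, the phospholipase C genes Plcg2 and Plch2. Phospholipase C as a step was not tested. Plcg2, a phospholipase C best known from immune cells and microglia, was higher in HT under lithium (log2 difference 0.46, limma adjusted p = 1.0e-05), under fluoxetine (0.41, 1.2e-05) and under vehicle (0.56, 8.3e-13; within set 2 0.52, 4.9e-05). Plch2 was higher in HT by 0.24, 0.19 and 0.30 under lithium, fluoxetine and vehicle (limma adjusted p = 0.0024, 0.0085 and 1.1e-08), and by 0.27 under vehicle within set 2 (limma adjusted p = 0.014). Over the 79 genes, 2 were higher and 1 lower in HT under lithium, 2 and 0 under fluoxetine, and 6 and 5 under vehicle, against 2.51%, 1.98% and 15% of all genes. The lower gene under lithium was Mrps6 (-0.22, limma adjusted p = 0.024). In the fit by set, 3 were higher and 1 lower under lithium, 3 and 2 under fluoxetine, and 2 and 0 under vehicle within set 2, against 4.49%, 2.85% and 0.536% of all genes.

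**Figure D5:**
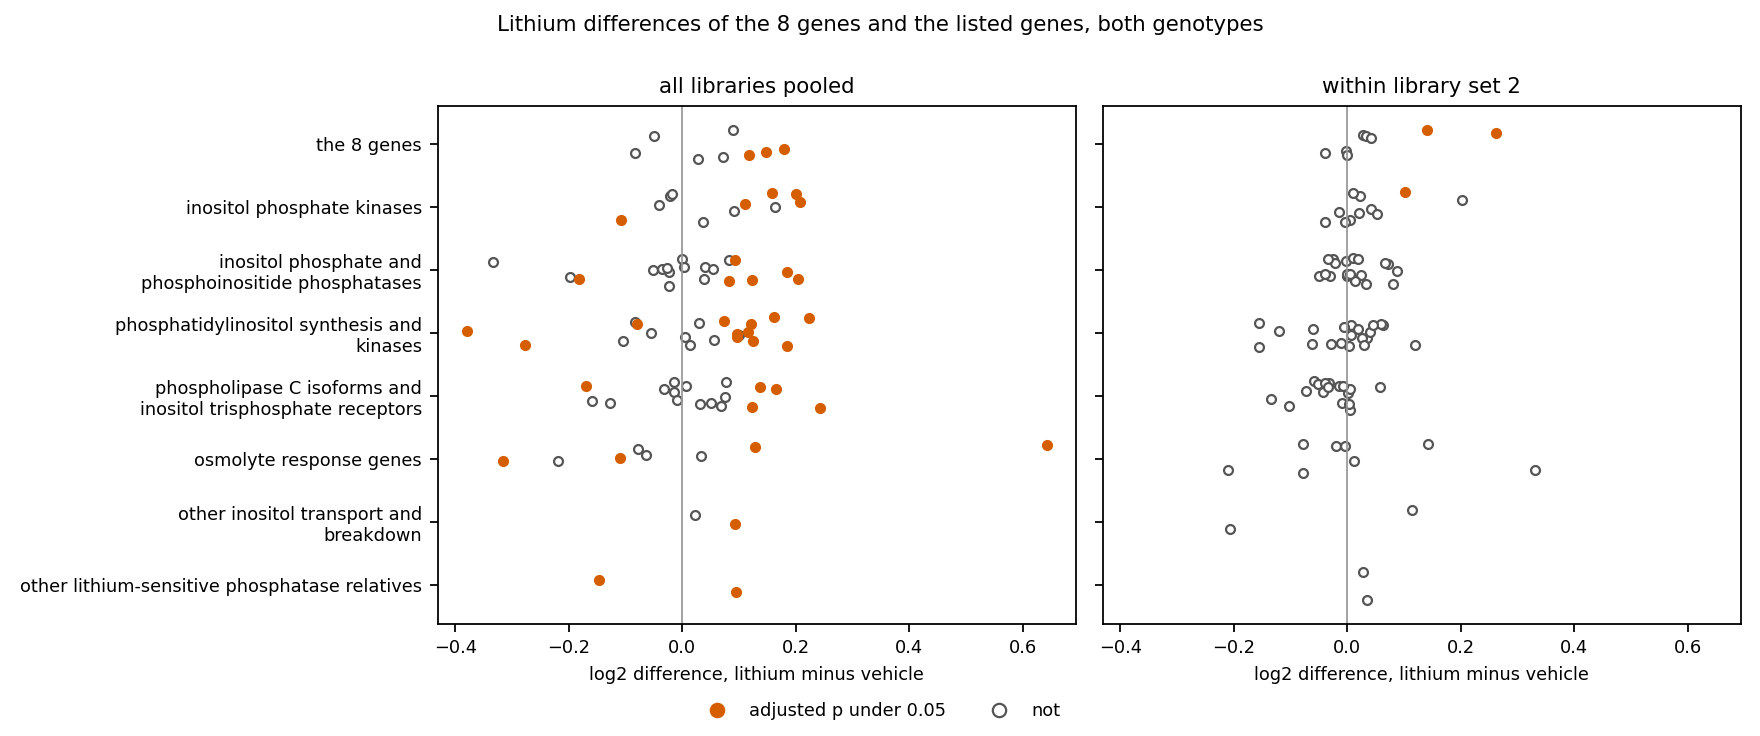
Log2 difference, lithium minus vehicle in both genotypes (x axis), of the 8 genes and of 79 other listed genes, Mrps6 among them, grouped by list (rows), over all libraries (left) and within set 2 (right); orange points passed at an adjusted p under 0.05. Over all libraries 26 listed genes passed as higher and 9 as lower, and within set 2 only Ipmk (0.10) did, beside Slc5a3 (0.26) and Impa1 (0.14).

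Genes with the profile most like each of the 8 were sought by Pearson's r of the log2 level over the 68 libraries, as a description, since libraries share drug, genotype and set. Impad1 had the closest partners, Ube3a (r = 0.94), Hdgfl3 (0.93) and Tmem106b (0.92), and Slc2a13 was next with Hecw1 (0.87), Trim37 (0.87) and Opcml (0.86). Impa1 was most like Nars (0.81), Zfp706 (0.77) and Tomm20 (0.77), and Bpnt1 most like Tmx2 (0.81), Mdh1 (0.80) and Psmd1 (0.80). Isyna1 went with Ndufs7 (0.77) and Ctsz (0.77), and Inpp1 with Epm2aip1 (0.74), Zfp638 (0.72) and Trim33 (0.72). The likeness was weakest for Slc5a3, with Yy1 (0.67), Chic1 (0.67) and N4bp1 (0.66), and for Impa2, with Unc13c (0.53), Tdrd5 (0.51) and Ppp1r1a (0.49).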

How the data were processed

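The authors deposited signal values, that is, normalized read counts per gene, for 68 libraries. Each column held whole reads divided by 1 size factor (100% whole within 0.01; in 8 columns 1 read was worth about 1). Per the submitters' processing notes, Salmon 0.11.2, R 3.6.0, DESeq2 1.19.11 and GRCm38 were used, with no role stated. Libraries were stranded mRNA libraries, per the labels' protocols; no source used here gives the annotation release, any filter, or whether counting used strand. Symbols of 18077 genes and all positions came from GENCODE vM21.

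Groups came from the labels. Main tests were limma 3.58.1 (R 4.3.3; trend, robust) on log2(value + 1), which understates changes of low genes. All 12 groups of genotype, drug and sex entered 1 model, and each effect averaged the contrasts of both sexes. A mean value of 5 or more was required (17922 genes kept, 166 left out), and p-values were Benjamini-Hochberg adjusted over all of these, at 0.05. The code was tested on simulated data. edgeR 4.0.16 (quasi-likelihood) was run on the recovered reads.

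Library sets were found by clustering libraries (average linkage, distance 1 minus r) on 361 pseudogenes into 3 sets, and a group-by-set model gave contrasts within a set. Alternatives were pseudocounts 0.5 and 5, no filter, TMM scaling, only the groups compared, a replicate block, 1 library set, edgeR, and each library left out. Added after seeing the data were edgeR within a set, set as a term, set 2 libraries alone, libraries left out within set 2, and vehicle between sets. The members and lists were chosen with earlier results of these data known, so no list result is independent support.

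The 8 members are named throughout. Of each list, up to 3 genes with the smallest p in the lithium comparisons (both genotypes or 1) and in each genotype comparison are named, and every gene of lists of 4 or fewer. Ipmk within set 2 and Nfat5 in the test between genotypes were named after their values were seen. Sequences came from GENCODE transcripts and RefSeq promoters, and the coding stretch of Impa2 is not shown here. Not every gene that the search for like profiles returned is reported here.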

Additional observations from a re-analysis of the deposited data

Results flagged for a closer look

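Of 88 combinations of a gene with a group of 4 or more libraries, 3 had 1 library far from the rest, where chance alone gives about 1 in 20. Impa2 was 183.7 normalized counts in HT lithium male 5, against 149 in the next of its 5 libraries. Inpp1 was 824.2 in WT lithium female 3, against 764 in the next of 5, and 862.9 in WT vehicle female 1, against 803 in the next of 8.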

How the results depend on the processing

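Of alternative values for members past the threshold, 71 kept direction and call, 20 lost the call and 3 reversed (Isyna1 within set 2 and with set as a term, and Impad1 with set as a term, all for lithium in WT). The cause was not tested. With TMM scaling, sign-changed log2 values were Inpp1 -0.00046 and Impad1 -0.0043 for lithium in HT and Slc5a3 -0.00012 for genotype under lithium. With edgeR, sign-changed log2 values were Inpp1 -0.0014 and Impad1 -0.0050 for lithium in HT and Isyna1 -0.0017 for the lithium difference between genotypes within the set. With set as a term, sign-changed log2 values were Isyna1 -0.043 for lithium in HT, Isyna1 -0.028 and Impad1 0.0061 for lithium in WT, Inpp1 0.00073, Isyna1 -0.036 and Impad1 0.034 for lithium in both genotypes, Inpp1 -0.023 and Slc2a13 0.058 for fluoxetine in HT, Isyna1 -0.10 and Impad1 0.037 for fluoxetine in WT and Impa1 -0.027 and Bpnt1 -0.016 for genotype under vehicle. Within 1 set, sign-changed log2 values were Isyna1 -0.035 for lithium in HT, Isyna1 -0.043 for lithium in WT, Isyna1 -0.039, Impad1 0.034 and Slc2a13 -9.7e-05 for lithium in both genotypes, Isyna1 0.0078 for the lithium difference between genotypes, Inpp1 -0.019 and Slc2a13 0.083 for fluoxetine in HT, Impa1 -0.081 and Bpnt1 -0.014 for genotype under vehicle and Impa1 0.046 for that between sexes.

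Replicate numbers did not pair libraries: over 218 same-numbered pairs the median correlation of deviations was -0.01 (-0.40 to 0.51), and in 0 of 44 group pairs were all over 0.1. With the replicate block, sign-changed log2 values were Inpp1 -0.024 and Impad1 -0.062 for lithium in HT, Slc2a13 0.021 for lithium in WT, Inpp1 -0.020, Isyna1 0.037, Impad1 -0.0097 and Slc2a13 0.012 for fluoxetine in HT and Slc5a3 -0.0023 for genotype under lithium. Lithium and fluoxetine libraries are numbered 1 to 5, so within a number they stand against vehicle libraries of sets 1 and 3 and of no other set. The block gave 3746 genes (20.9% of all tested) and 2 members for lithium in HT. For lithium in both genotypes it gave 9380 genes, 52.3% of all tested, and 7 members. It gave 1150 genes for the difference between genotypes, 398 for fluoxetine in HT, and 4003 genes (22.3%) and 1 member for fluoxetine in WT.

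Counts moved past 1.5 times as follows. Lithium in HT gave 273 genes, against 495 with only the groups compared, 29 within set 2 and 20 with set as a term, and from set 2 libraries alone 17 genes and 1 member. Lithium in WT gave 6478 genes and 5 members, against 4254 and 2 with only the groups compared, 119 and 0 within set 2, and 255 and 0 with set as a term. Lithium in both genotypes gave 6433 genes, against 322 within set 2 and 366 with set as a term, and 1 member from set 2 libraries alone. The difference between genotypes gave 502 genes, against 1 with only the groups compared, 0 within set 2 and 2 with set as a term. Fluoxetine in HT gave 218, against 30 within set 1 and 15 with set as a term, and fluoxetine in WT 974, against 80 with only the groups compared and 0 with set as a term. Genotype under vehicle gave 2680 genes and 2 members, against 858 and 0 with only the groups compared, 96 and 0 within set 2, 218 and 0 with set as a term, and 1 member by edgeR. Genotype under lithium gave 450 genes, against 805 by set, 756 with set as a term and 1241 from set 2 libraries alone.

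Leaving out each library in turn gave 61 to 379 genes for lithium in HT (2 to 59 within set 2), 4961 to 7340 in WT (16 to 302) and 5591 to 7163 in both genotypes (159 to 514), 0 to 1492 for the difference between genotypes, 0 to 1 for that between sexes, 111 to 432 and 338 to 1969 for fluoxetine in HT and WT, and 170 to 594, 276 to 448 and 1730 to 4155 for genotype under lithium, fluoxetine and vehicle. Members past the threshold numbered 3 to 5 for lithium in WT and in both genotypes (0 to 2 within set 2) and 1 to 4 for genotype under vehicle. Without 1 library each, log2 values past no threshold ranged from lowest to highest as Isyna1 -0.0076 to 0.054, Impad1 -0.028 to 0.029 and Inpp1 -0.0071 to 0.029 for lithium in HT, Isyna1 -0.054 to 0.0073 for lithium in HT within the set, Impa2 -0.036 to 0.0096 for lithium in WT, Impad1 -0.043 to 0.012 for lithium in WT within the set. Further ranges were Slc2a13 -0.022 to 0.020 and Inpp1 -0.015 to 0.014 for lithium in both genotypes within the set, Slc2a13 -0.053 to 0.0018, Impa2 -0.058 to 0.0085 and Inpp1 -0.0036 to 0.024 for fluoxetine in HT, Bpnt1 -0.0026 to 0.023 for genotype under vehicle, Impad1 -0.0096 to 0.035, Bpnt1 -0.0048 to 0.017 and Slc2a13 -0.028 to 0.034 for genotype under fluoxetine. The last were Isyna1 -0.014 to 0.057 and Slc5a3 -0.029 to 0.040 for genotype under lithium, Slc5a3 -0.012 to 0.058 and Impa1 -0.073 to 0.012 for that between sexes.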
